A study of Homo sapiens with 4 samples.

Results

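Integrins, the hyaluronan receptor CD44 and the proteins that couple integrins to actin were examined as 36 named genes, out of 20024 genes in the count table. They comprised 18 integrin subunits (12 alpha and 6 beta chains), CD44 and 17 intracellular adhesion proteins, and each was found once by its gene name. Bulk RNA libraries were made from SJSA-1, a line established from a human osteosarcoma, 2 of them with ZNF217 knockdown and 2 from control cells. ZNF217 encodes a zinc finger transcription factor, and the series title places the study in AKT signaling, tumor growth and metastasis. The knockdown reagent is not given in the sources used here. The labels do not say whether the replicates were grown apart, so the p-values refer to the spread among these 4 libraries, which may be no more than technical.

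Integrins are membrane receptors made of an alpha and a beta chain. They bind collagens, laminins or fibronectin outside the cell, and talin and kindlin bind the beta chain's tail inside it. Paxillin, focal adhesion kinase and SRC then assemble at the site, while vinculin, alpha-actinin, filamin and zyxin tie it to actin filaments. In bone tumor cells these contacts serve attachment, spreading and migration.

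The knockdown libraries held 24428774 and 23217521 counts, and the control libraries held 21466327 and 24487126. ZNF217 itself was at 37.6 and 31.9 CPM (counts per 1000000 reads, scaled by the TMM method) in the knockdown libraries, against 66.2 and 73.4 CPM in the controls, which is 49.7% of the control mean (log2 fold change −1.01, SE 0.20, edgeR adjusted p = 0.207 and DESeq2 adjusted p = 0.00879). Replicate spread was uneven, with a biological coefficient of variation of 0.0776 between the knockdown libraries and 0.393 between the controls. FOS, a growth-signal-induced gene, was at 21.2 and 27.7 CPM in knockdown and at 21.4 and 725 CPM in the controls. Results below are therefore given also against each control library alone. Among 9 line and mesenchymal markers, CDK4 was at 331 and 367 CPM in knockdown and 349 and 184 CPM in controls. VIM, the mesenchymal filament vimentin, was at 2729 and 2566 CPM in knockdown and 3660 and 4266 CPM in controls. MDM2 was lower, between 30.4 and 46.3 CPM in all libraries, and COL1A1 was between 3.51 and 17.1 CPM. COL1A2 was the 1 marker of the 9 under 1 CPM in every library. KRT8 and KRT18, keratins of simple epithelia, were high, between 768 and 1224 CPM. The epithelial markers EPCAM and CDH1, the pan-leukocyte gene PTPRC and all 5 endothelial markers stayed under 1 CPM in every library. In bulk RNA, fewer cells of a type and less RNA per cell cannot be told apart.

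By edgeR, 9 of 33 tested genes (27.3%) had an unadjusted p under 0.05 with lower knockdown levels, beside 6.42% of all genes. None of the 9 passed after adjustment over all genes. They were PXN (paxillin), ZYX (zyxin), ACTN1 (alpha-actinin-1), PTK2 (focal adhesion kinase) and TNS1 (tensin-1), the integrin subunits ITGA5, ITGA6 and ITGB5, and CD44. Knockdown levels of these 9 genes ranged from 38% of the control mean for TNS1 to 72.3% for CD44. The log2 fold changes of ITGA5 and ITGB5, −0.80 and −1.16 with all libraries, were −0.34 and −0.39 without control 2. By contrast, the knockdown values of TLN1 (talin-1), VCL (vinculin), ACTN4 (alpha-actinin-4) and FLNA (filamin A) overlapped those of the controls. CD44 and FLNA stayed abundant in both groups, with lowest values of 584 and 896 CPM in any library.

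Of the 36 genes 33 passed the filter on low counts. The integrin subunits ITGA8, ITGA9 and ITGB6 had at most 22 counts in any library and were not tested. By edgeR's quasi-likelihood test 0 of the 33 genes passed an adjusted p of 0.05, lower or higher, as did 0% of all 12965 genes tested. At an unadjusted p under 0.05, 9 of the 33 were lower and 0 higher, where 6.42% of all genes were lower and 6.61% higher. DESeq2 called 2 of the genes lower, PXN and TNS1, and 0 higher, where it called 2.12% of all genes lower and 1.68% higher (3.8% in either direction). Both knockdown libraries lay below both controls for 13 of the 33 (39.4%), beside 22.9% of all genes. They lay above both controls for 2, TLN2 and FERMT2 (6.06%), beside 25.4% of all genes. Separation in either direction was found for 48.3% of all genes. The median log2 fold change of the 33 was −0.41, beside −0.01 over all genes tested. It was −0.41 without control 1 and −0.18 without control 2.

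**Figure D1:**
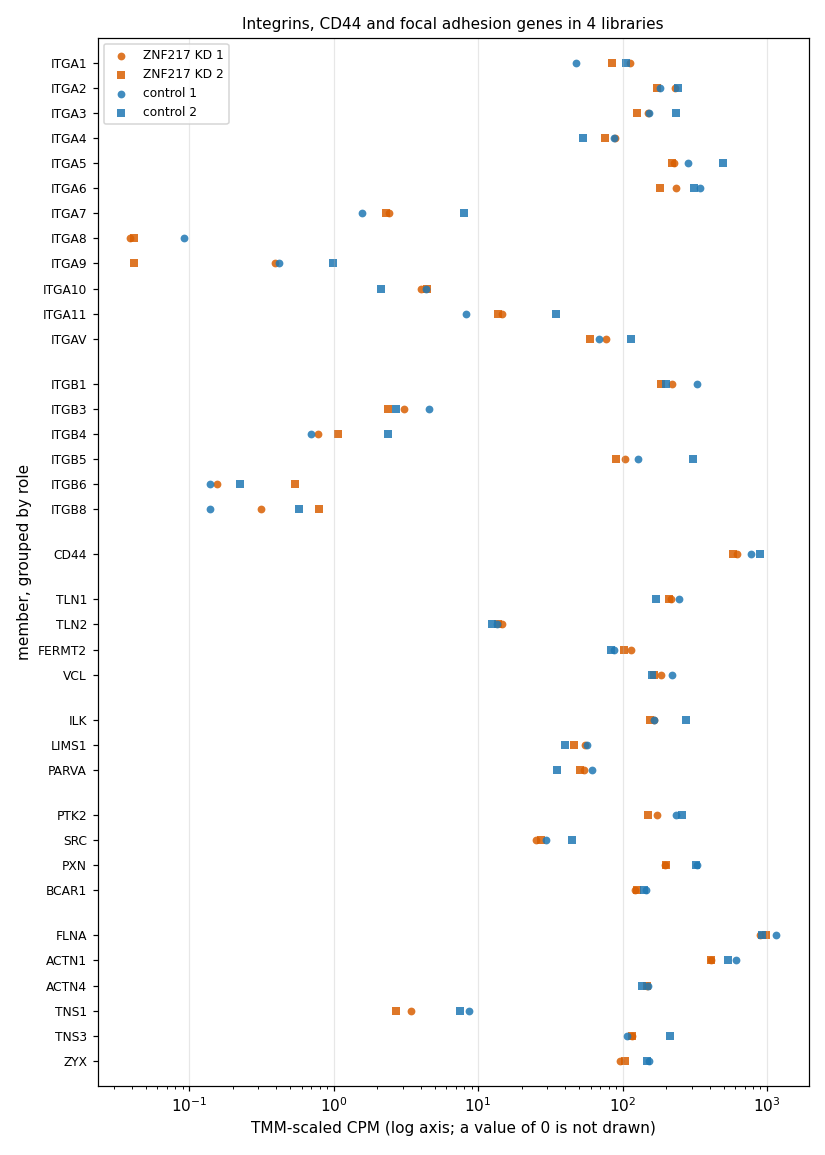
CPM on a log axis (x) of the 36 genes (y, grouped by role) in the 2 ZNF217 knockdown libraries (orange) and the 2 control libraries (blue), 1 point per library. Knockdown points of PXN, ZYX and TNS1 lie left of both control points, while the controls of ITGA7, ITGA11 and ITGB5 lie far from each other.

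Integrin subunits and intracellular proteins were compared as classes. For the 15 tested subunits the median log2 fold change was −0.41, with values from −1.16 to 0.60. The 17 intracellular genes had a median of −0.21, with values from −1.40 to 0.34. Both knockdown libraries lay below both controls for 4 of 15 subunits (26.7%) and for 8 of 17 intracellular genes (47.1%), and above both for 0 subunits and 2 intracellular genes (11.8%). Over all genes tested these shares were 22.9% below and 25.4% above, so the integrin share below was near that of all genes. The difference between the medians, integrin minus intracellular, was −0.21. It became −0.41 without control 1 and 0.17 without control 2, so the order of the classes turned with the choice of control library. The integrin median was −0.61 without control 1 and −0.06 without control 2, while the intracellular median was −0.20 and −0.23. No test of the difference was run.

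**Figure D2:**
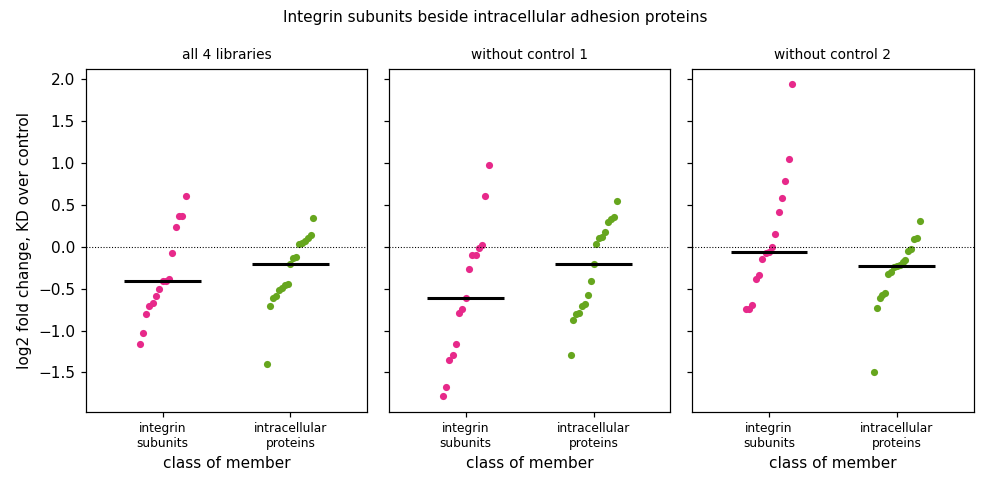
Log2 fold changes (y, knockdown over control) of 15 integrin subunits and 17 intracellular adhesion genes with all libraries (left), without control 1 (middle) and without control 2 (right); each point is 1 gene and each bar a median. The intracellular median stays between −0.20 and −0.23, while the integrin median lies at −0.41, −0.61 and −0.06.

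Replicates of the integrin genes lay further apart, above all in the controls. Between the knockdown libraries the median absolute difference was 0.26 on the log2 CPM scale for the 15 subunits, 0.10 for the 17 intracellular genes and 0.13 over all genes tested. Between the controls these medians were 0.80, 0.21 and 0.49. Control 2 was more than 1.5-fold above control 1 for 9 subunits, and control 1 more than 1.5-fold above control 2 for 4. Only ITGA2 and ITGA6 of the tested subunits lay within 1.5-fold in the controls, as did 13 of the 17 intracellular genes. Immediate early genes also differed between the controls, and 12 of the 14 in the list were higher in control 2 than in control 1. Their median difference was 2.10, beside 0.00 over all genes tested. Their summed level was 1362 and 1424 CPM in knockdown and 1834 and 4970 CPM in controls. MYC was at 15.5 and 20.3 CPM in knockdown and 49.3 and 41.8 CPM in controls, KLF6 at 90 and 77.7 CPM in knockdown and 161 and 172 CPM in controls, and JUN at 109 and 114 CPM in knockdown and 244 and 583 CPM in controls. Those were the 3 of the 14 that DESeq2 called lower, beside 2.12% of all genes. By edgeR 0 of the 14 were called, and 6 were lower at an unadjusted p under 0.05, beside 6.42% of all genes. Among these 6, FOS and EGR1 overlapped between groups, with log2 fold changes of 0.19 and 0.13 without control 2. The median log2 fold change of the 14 was −1.17, with −1.74 without control 1 and 0.09 without control 2. Without control 2 only 6 of the 14 were below 0. The part of the immediate early genes in the integrin values was not tested.

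**Figure D3:**
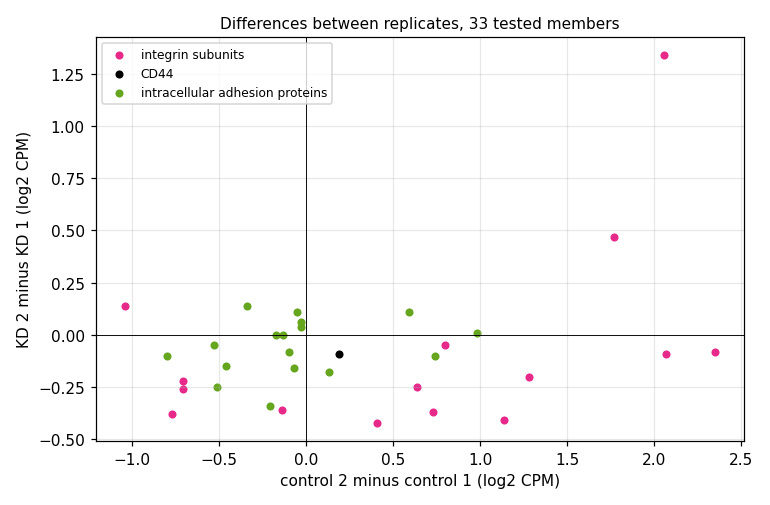
Difference between the 2 knockdown libraries (y, replicate 2 minus 1) and between the 2 control libraries (x, likewise), both in log2 CPM, for the 33 tested genes. Integrin subunits (pink) spread along x from −1.04 to 2.35, whereas 13 of the 17 intracellular genes (green) lie within 1.5-fold on that axis.

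Upstream sequence is shown for 4 genes chosen after their values were seen: PXN and ZYX, whose controls were close together, and ITGA5 and ITGB5, whose controls were far apart. Each run holds the 250 bases before the RefSeq transcript start and the first 30 after it (GRCh38.p14). Capitals mark the GC box GGGCGG of SP1 on either strand in all 4 genes, and in ITGA5 also the TEAD motif GGAATG and, across the start, the AP-1 motif TGANTCA.
PXN, chr12:120265701-120265980, minus strand: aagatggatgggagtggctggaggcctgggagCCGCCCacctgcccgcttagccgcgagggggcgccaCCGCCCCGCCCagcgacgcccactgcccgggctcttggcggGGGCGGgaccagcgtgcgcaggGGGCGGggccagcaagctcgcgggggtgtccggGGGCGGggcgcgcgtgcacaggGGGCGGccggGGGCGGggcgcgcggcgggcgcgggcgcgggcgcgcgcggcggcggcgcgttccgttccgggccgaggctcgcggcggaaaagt
ZYX, chr7:143381095-143381374, plus strand: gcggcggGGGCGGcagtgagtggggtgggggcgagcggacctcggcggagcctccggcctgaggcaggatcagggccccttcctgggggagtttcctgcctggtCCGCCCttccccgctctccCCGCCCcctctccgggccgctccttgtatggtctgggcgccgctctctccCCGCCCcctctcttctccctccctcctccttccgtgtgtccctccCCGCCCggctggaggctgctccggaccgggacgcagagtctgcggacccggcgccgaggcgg
ITGA5, chr12:54419237-54419516, minus strand: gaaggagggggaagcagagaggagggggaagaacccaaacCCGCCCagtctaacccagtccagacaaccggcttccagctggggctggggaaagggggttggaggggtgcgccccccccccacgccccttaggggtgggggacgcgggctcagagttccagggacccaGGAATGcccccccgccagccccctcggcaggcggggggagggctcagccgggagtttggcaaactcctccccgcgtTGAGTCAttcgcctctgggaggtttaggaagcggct
ITGB5, chr3:124901389-124901668, minus strand: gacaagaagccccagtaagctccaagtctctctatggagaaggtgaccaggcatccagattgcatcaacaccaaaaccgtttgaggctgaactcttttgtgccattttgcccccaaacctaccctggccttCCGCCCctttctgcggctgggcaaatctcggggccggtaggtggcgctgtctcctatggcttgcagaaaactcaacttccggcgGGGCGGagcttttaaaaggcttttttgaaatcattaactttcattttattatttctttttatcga
PXN held 8 GC boxes (2 of them overlapping), ZYX 5, ITGB5 2 and ITGA5 1. GC content was 82.1% in PXN, 75.4% in ZYX, 68.6% in ITGA5 and 48.9% in ITGB5.

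RefSeq windows were found for 28 of the 36 genes. GC boxes occurred in 18 of them (64.3%), against 69.7% of the windows of 10378 tested genes. AP-1 motifs occurred in ACTN4, BCAR1 and ITGA5 (10.7% of 28, against 4.42%), and TEAD motifs in ITGA10, ITGA5, ITGB1 and VCL (14.3% against 10.3%). The hexamers CAGAAT and CAGAAC, on either strand, which are part of a sequence bound by ZNF217 in vitro, occurred in ILK, ITGA6 and TNS3 (10.7% against 17.6%). The CArG box of SRF occurred in FLNA and ITGB6 (7.14% against 1.07%). The 28 windows included untested genes, ITGB6 here and ITGA8 among the GC boxes, while the compared windows were of tested genes only. These matches describe the letters of the windows and not binding.

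The 4 scaffolds and kinases of the adhesion had a median of −0.56 for the log2 fold change. Both knockdown libraries lay below both controls for 4 of 4, beside 22.9% of all genes tested. The median was −0.70 without control 1 and −0.39 without control 2. PXN (ENSG00000089159, chromosome 12, 120210439 to 120265771, minus strand of GRCh38) encodes paxillin, a docking protein of focal adhesions. It was at 195 and 200 CPM in the knockdown libraries, against 328 and 320 CPM in the controls. The replicates of each group nearly coincided. Its log2 fold change was −0.71 (SE 0.16, edgeR unadjusted p = 0.00594, adjusted p = 0.233, DESeq2 adjusted p = 0.0496), and it was −0.71 without control 1 and −0.73 without control 2. The antisense gene PXN-AS1 covers 12.3% of its exon bases, and without a known strand setting its reads cannot be told apart there.

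PTK2, the focal adhesion kinase, was at 172 and 151 CPM in knockdown, against 236 and 257 CPM in controls. The groups did not overlap, and the log2 fold change was −0.61 (SE 0.17, edgeR unadjusted p = 0.0167, adjusted p = 0.288). SRC, the tyrosine kinase that acts with it, was at 25.2 and 27.2 CPM in knockdown and 29.7 and 44.9 CPM in controls, with control 2 high. Its log2 fold change of −0.51 (SE 0.27, edgeR unadjusted p = 0.112, adjusted p = 0.481) was −0.79 without control 1 and −0.18 without control 2. BCAR1, the scaffold p130Cas that both kinases phosphorylate, differed little, at 121 and 126 CPM in knockdown and 145 and 141 CPM in controls.

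Actin-binding and LIM or tensin proteins had a median of −0.47 over 6 genes. Of these, 3 were separated below the controls, beside 22.9% of all genes tested. TNS1 (ENSG00000079308, chromosome 2, 217799588 to 218033982, minus strand) encodes tensin-1, which links integrin tails to actin in fibrillar adhesions. It was low in both groups, with 88 and 65 counts (3.44 and 2.71 CPM) in knockdown and 188 and 168 counts (8.69 and 7.5 CPM) in controls. The knockdown mean was 38% of the control mean, at a log2 fold change of −1.40 (SE 0.34, edgeR unadjusted p = 0.00868, adjusted p = 0.247, DESeq2 adjusted p = 0.0451). Its paralog TNS3 was far more abundant and gave 116 and 117 CPM in knockdown, against 108 and 212 CPM in controls, so that knockdown lay between the controls.

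ZYX, a LIM protein that accumulates at strained adhesions, was at 96.2 and 104 CPM in knockdown and 153 and 148 CPM in controls. Replicates lay close together in both groups, and its log2 fold change was −0.59 (SE 0.17, edgeR unadjusted p = 0.0169, adjusted p = 0.288). ACTN1, an actin crosslinker, was at 408 and 408 CPM in knockdown and 606 and 537 CPM in controls (log2 fold change −0.49, SE 0.16, edgeR unadjusted p = 0.0286, adjusted p = 0.333). Its close relative ACTN4 stayed level, with 147 and 147 CPM in knockdown and 149 and 136 CPM in controls. FLNA, the filamin that crosslinks actin at the membrane, was the gene of highest level per length in the set, and its 896 and 984 CPM in knockdown overlapped 1156 and 916 CPM in controls.

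Integrin activators and the talin-vinculin link to actin had a median of 0.08 over 4 genes. This median turned with the control library, at 0.24 without control 1 and −0.06 without control 2. Of the 4 genes, 0 were separated below the controls and 2 above, beside 22.9% and 25.4% of all genes tested. TLN1, the talin that switches integrins on, was at 216 and 209 CPM in knockdown, inside the 247 and 171 CPM of the controls (log2 fold change 0.03, SE 0.23, edgeR adjusted p = 0.971). VCL, vinculin, which reinforces the link under tension, was at 185 and 166 CPM in knockdown and 221 and 160 CPM in controls (log2 fold change −0.12, SE 0.22, edgeR unadjusted p = 0.616). FERMT2, kindlin-2, talin's partner at the beta tail, was the other way round from most genes: 114 and 102 CPM in knockdown lay above 87.3 and 83.3 CPM in controls. Its log2 fold change was 0.34 (SE 0.17, edgeR unadjusted p = 0.107, adjusted p = 0.474), with 0.36 without control 1 and 0.31 without control 2. TLN2, a less abundant talin, was at 14.6 and 13.8 CPM in knockdown and 13.4 and 12.5 CPM in controls, a log2 difference of 0.14 with an SE of 0.24.

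The complex of ILK, PINCH-1 (LIMS1) and alpha-parvin (PARVA) binds the kindlin-occupied tail and actin. ILK was at 165 and 154 CPM in knockdown and 165 and 275 CPM in controls, so that control 1 equalled the higher knockdown library after rounding and control 2 stood clear. Its log2 fold change of −0.46 (SE 0.28, edgeR unadjusted p = 0.157, adjusted p = 0.534) was −0.80 without control 1 and −0.05 without control 2. TAF10, transcribed from the opposite strand, covers 68.1% of ILK's exon bases and was itself at 123 and 136 CPM in knockdown and 129 and 182 CPM in controls, so ILK's level is uncertain. LIMS1, at 54.8 and 46.2 CPM in knockdown and 56.6 and 39.8 CPM in controls, and PARVA, at 53.9 and 50.4 CPM in knockdown and 61.6 and 35.4 CPM in controls, overlapped between groups.

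**Figure D4:**
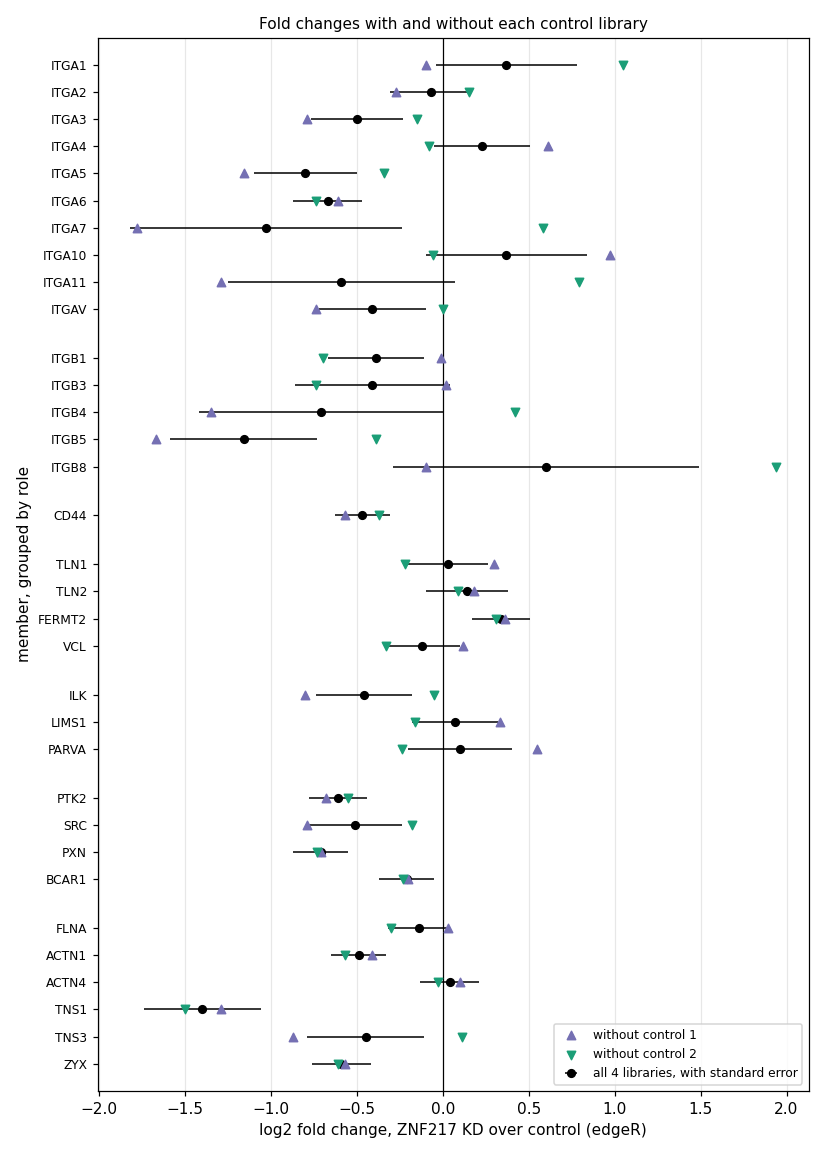
Log2 fold change (x, knockdown over control, edgeR) of the 33 tested genes (y, grouped by role): black points with SE bars use all libraries, purple and green triangles leave out control 1 and control 2. PXN, ZYX, PTK2, ACTN1 and TNS1 keep close values, while ITGA7, ITGA11, ITGB4 and TNS3 change sign.

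Among integrins, levels per gene length show which subunit RNAs the line carries. Receptor pairs and surface protein were not measured. By TPM (count over gene length, scaled to a sum of 1000000 per library), the beta chains were led by ITGB1, the common partner of the collagen, laminin and fibronectin receptors. It had 121 and 96.9 TPM in knockdown and 184 and 93 TPM in controls. ITGB5 followed at 52.9 and 44.1 TPM in knockdown and 65.8 and 132 TPM in controls. ITGB1 made up 68.5% and 67.4% of the summed beta TPM in knockdown, against 72.5% and 40.9% in controls, so in control 2 ITGB5 was the more abundant of the pair. ITGB3, ITGB4, ITGB6 and ITGB8 were at most 3.51 TPM in any library.

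Alpha chains of the highest mean TPM were ITGA5, ITGA6, ITGA2 and ITGA3, with means over the 4 libraries of 128, 126, 81.7 and 52.6 TPM. ITGA5 and ITGA6 lay within each other's spread, as did ITGB1 at 124 TPM. ITGAV, ITGA4 and ITGA1 were intermediate at 30.2, 22.8 and 14.7 TPM, and ITGA11, ITGA10, ITGA7, ITGA9 and ITGA8 were each under 5 TPM on average. ITGA8 had 1 and 1 counts in knockdown and 2 and 0 counts in controls, where a count of 0 allows up to 3 counts, or 0.134 CPM.

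**Figure D5:**
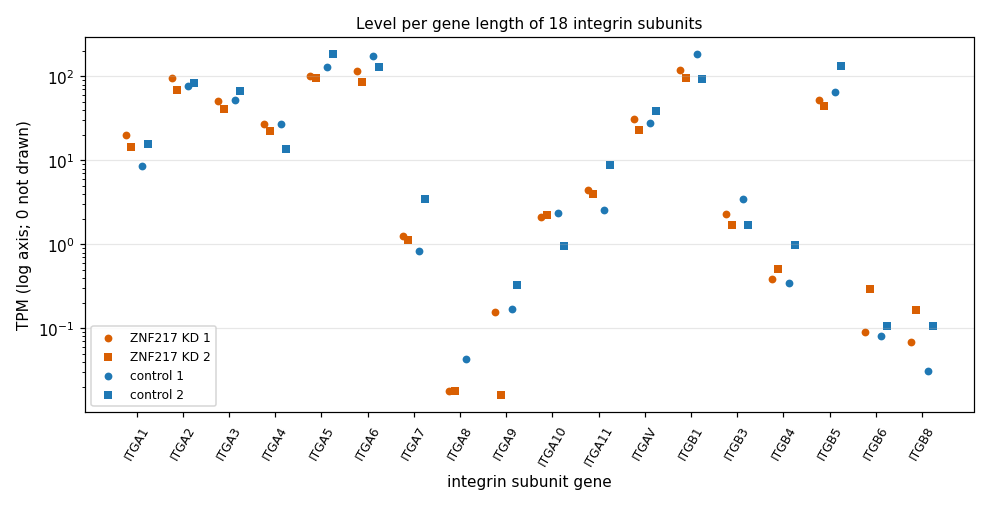
TPM on a log axis (y) of the 18 integrin subunits (x), with 1 point per library, knockdown in orange and control in blue. ITGA5, ITGA6 and ITGB1 sit near 100 TPM, and ITGB5 in control 2 reaches 132 TPM against 44.1 to 65.8 TPM in the other 3 libraries.

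Fibronectin and vitronectin receptors bind RGD motifs in the matrix. ITGA5 (ENSG00000161638, chromosome 12, 54395261 to 54419460, minus strand), the fibronectin receptor's alpha chain, was at 227 and 220 CPM in knockdown, against 283 and 494 CPM in controls. Both controls were higher, but they differed from each other by more than control 1 differed from knockdown. The log2 fold change was −0.80 (SE 0.30, edgeR unadjusted p = 0.0419, adjusted p = 0.368), with −1.16 without control 1 and −0.34 without control 2. ITGB5 (ENSG00000082781, chromosome 3, 124761948 to 124901418, minus strand), which pairs with the alpha-v chain, showed the same layout, at 104 and 90.6 CPM in knockdown and 127 and 308 CPM in controls. Its log2 fold change of −1.16 (SE 0.43, edgeR unadjusted p = 0.0429, adjusted p = 0.37) was −1.67 without control 1 and −0.39 without control 2.

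ITGAV, the alpha-v chain itself, was at 77.2 and 59.7 CPM in knockdown and 68.5 and 114 CPM in controls, with the groups overlapping (log2 fold change −0.41, SE 0.31, edgeR adjusted p = 0.602). Against control 1 alone its log2 fold change was 0.00, and against control 2 alone −0.74. ITGB3, the other well-known alpha-v partner, had only 79 and 57 counts in knockdown and 99 and 60 counts in controls (log2 fold change −0.41, SE 0.45, edgeR adjusted p = 0.729). An overlapping gene on the same strand, AC068234.1, covers 51.6% of ITGB3's exon bases and had 0 counts in every library, and how reads in shared exons were assigned is not given in the sources used here. FN1, the ligand fibronectin, was at 758 and 627 CPM in knockdown and 1500 and 2415 CPM in controls (DESeq2 adjusted p = 0.000276, edgeR adjusted p = 0.19).

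Laminin receptors were led by ITGA6, whose protein pairs with beta-1 or beta-4. It was at 233 and 182 CPM in knockdown and 345 and 313 CPM in controls, without overlap. The log2 fold change was −0.67 (SE 0.20, edgeR unadjusted p = 0.019, adjusted p = 0.294), with −0.61 without control 1 and −0.74 without control 2. ITGA3 was at 149 and 126 CPM in knockdown and 152 and 236 CPM in controls, where control 1 nearly met the knockdown level. ITGA7, the laminin receptor chain of muscle, was at 2.42 and 2.29 CPM in knockdown and at 1.57 and 8.03 CPM in controls, on both sides of them. ITGB4, the beta chain of hemidesmosomes, stayed under 2.4 CPM in every library.

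Collagen receptors gave no common direction. ITGA1 was at 112 and 84.6 CPM in knockdown and 47.4 and 105 CPM in controls, ITGA2 at 229 and 172 CPM in knockdown and 181 and 240 CPM in controls, and both overlapped between groups. ITGA11, a collagen I receptor of mesenchymal cells, was at 14.6 and 13.7 CPM in knockdown, between 8.18 and 34.4 CPM in the controls. It was called in opposite directions by edgeR, higher without control 2 (log2 fold change 0.79, adjusted p = 0.0006) and lower without control 1 (−1.29, adjusted p = 1.02e-14). ITGA10, a collagen receptor of cartilage, was between 2.14 and 4.42 CPM in all libraries.

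ITGB1, the shared beta chain, was at 219 and 184 CPM in knockdown and 328 and 201 CPM in controls. Here control 1 was the high library, unlike for ITGB5, and the log2 fold change of −0.39 (SE 0.28, edgeR unadjusted p = 0.222, adjusted p = 0.594) was −0.01 without control 1 and −0.70 without control 2. The leukocyte-homing chain ITGA4 also had a high control 1, at 87.9 and 75.6 CPM in knockdown and 86.6 and 53 CPM in controls. ITGB8 had 8 and 19 counts in knockdown and 3 and 13 counts in controls, too few to order the groups.

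CD44 binds hyaluronan and is linked to actin by ERM proteins. Its 621 and 584 CPM in knockdown lay below 777 and 888 CPM in controls. The log2 fold change was −0.47 (SE 0.16, edgeR unadjusted p = 0.0336, adjusted p = 0.344, DESeq2 adjusted p = 0.35). It was −0.57 without control 1 and −0.37 without control 2, so the direction did not rest on either control.

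With a lone control, under the assumption that it varies like the knockdown pair, edgeR called many more genes of every kind. Without control 1 it called 18 of the 33 lower and 6 higher, beside 28% and 27.9% of all genes tested. Without control 2 it called 13 lower and 3 higher, beside 16.6% and 18% of all genes. These calls compare the knockdown pair with 1 library and not with a group.

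The same machinery was also read from further lists of named genes. Of 40 tested further focal adhesion genes, 15 (37.5%) lay below both controls and 5 (12.5%) above, beside 22.9% and 25.4% of all genes tested. Their median log2 fold change was −0.16 (−0.16 without control 1 and −0.10 without control 2). By edgeR 0 of the 40 were called. At an unadjusted p under 0.05, 6 were lower and 1 higher, beside 6.42% and 6.61% of all genes. DESeq2 called 1 of the 40 lower and 0 higher, beside 2.12% and 1.68% of all genes. The gene called was FERMT1 (kindlin-1), at 20.6 and 18.3 CPM in knockdown and 34.1 and 39.1 CPM in controls (DESeq2 adjusted p = 0.043), opposite in sign to FERMT2. LPP, a LIM protein of the zyxin family, was at 22.1 and 20.8 CPM in knockdown and 32.5 and 35.3 CPM in controls (edgeR unadjusted p = 0.0206, adjusted p = 0.304). On the higher side KANK1, a talin-binding protein of the adhesion rim, was at 27.1 and 28.3 CPM in knockdown and 17 and 7.76 CPM in controls (edgeR unadjusted p = 0.0356, adjusted p = 0.351).

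Of 17 tested extracellular ligands, 4 (23.5%) lay below both controls and 4 (23.5%) above, near the 22.9% and 25.4% of all genes tested, and their median was −0.08. DESeq2 called FN1 and NID1 lower and SPP1 higher, beside 2.12% and 1.68% of all genes. By edgeR 0 of the 17 were called. At an unadjusted p under 0.05, 3 were lower and 1 higher, beside 6.42% and 6.61% of all genes. NID1, a laminin-binding basement membrane protein, was at 8.59 and 7.26 CPM in knockdown and 53.4 and 121 CPM in controls. SPP1, osteopontin, an RGD ligand of alpha-v integrins, was at 126 and 133 CPM in knockdown and 14.6 and 8.3 CPM in controls. The ligand median was −0.42 without control 1 and 0.20 without control 2.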

How the data were processed

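The members and gene lists were chosen with earlier results of these data known. Counts of 4 libraries are the authors' deposited whole reads per gene, not normalized. DESeq2, HISAT2, Subread and Trimmomatic, and the build GRCh38, are named in the submitters' processing notes without versions. The sources used here do not give the strand setting or annotation. A deposited signal equals count over gene length, summing to 10000000 per library, and was rescaled to TPM. The authors' deposited log2 fold changes (control over knockdown), p-values and the score (statistic) of their test, per the file headers, were not used in any test.

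edgeR 4.0.16 (R 4.3.3) quasi-likelihood tests used TMM scaling, no covariate and the default low-count filter (a minimum count of 10, a minimum total of 15), which left 12965 of 20024 genes. P-values were two-sided and Benjamini-Hochberg adjusted over all of these (threshold 0.05). SE is the absolute log2 fold change over the root of edgeR's F. Alternatives were DESeq2 1.42.0, limma 3.58.1 (voom, and log2(TPM + 1)), other scalings and filters, a replicate block and leaving out each library. Tests were checked on simulated counts that had the same spread in both groups. These libraries did not, so the check does not cover their uneven controls. Totals ran from 21466327 to 24487126; limits at 0 counts cover counting error only. Full statistics went to genes with an unadjusted p under 0.05 and at least 1 CPM, and to 10 central genes listed by name (ITGB1, ITGAV, ITGA5, ITGB3, CD44, PTK2, TLN1, VCL, ILK and SRC); other members are given by values, and other lists by their 3 smallest p and central genes. Some items that this rule names are not reported here. Positions and exon overlaps came from GENCODE release 29 (GRCh38); 17 of the 36 gene lengths equal its exon unions. Promoter windows came from RefSeq. Figures used matplotlib 3.10.9.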

Additional observations from a re-analysis of the deposited data

How the results depend on the processing

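The limits are 2 libraries per group and controls that differ from each other. ZNF217 kept its direction under every alternative run: its log2 fold change was −1.03 by DESeq2, where it passed the threshold, and −1.13 to −0.89 with 1 library left out. Calls among the 33 tested genes were 0 under edgeR with each scaling, filter and block and under both limma fits (also at a threshold of 0.01 in edgeR), 2 lower by DESeq2, and with a library left out 0 to 18 lower and 0 to 6 higher. Over all genes they were 3 lower and 16 higher without a filter, 264 and 209 by DESeq2, 124 and 160 with the replicate block, and 3 to 3729 and 12 to 3710 with a library left out. The upper ends of the calls came from leaving out control 1; without either knockdown library at most 12 genes were called in a direction. Of the 33, genes below both controls numbered 10 with total counts and 12 on the TPM scale, and those above 3 and 1. With a library left out, separation is easier to reach, and genes below the remaining controls numbered 14 to 21 and those above 4 to 9. Over all genes tested, those below went from 2964 to 5878 without control 1 and 5560 without control 2. Those above went from 3296 to 6153 and 5703. With total counts the median of all genes moved to 0.11 and that of the intracellular genes to −0.09; on the TPM scale the intracellular median was −0.12. With a library left out the integrin median ran from −0.61 to −0.06 and the difference of medians from −0.41 to 0.17. Libraries of the same replicate number shared no deviation (correlation of deviations −0.0196, 12965 genes), which with 2 libraries per group cannot exclude pairing. The block changed no call among the 33.

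Of 33 genes, 17 never changed sign. ITGA2 did with total counts (0.06) and on the TPM scale (0.01). With a library left out, log2 fold changes crossed 0 for ITGA1 (−0.10 to 1.05), ITGA2 (−0.29 to 0.15), ITGA4 (−0.08 to 0.61), ITGA7 (−1.78 to 0.58), ITGA10 (−0.06 to 0.97), ITGA11 (−1.29 to 0.79), ITGB3 (−0.74 to 0.02), ITGB4 (−1.35 to 0.42), ITGB8 (−0.20 to 1.94), TLN1 (−0.22 to 0.30), VCL (−0.33 to 0.12), LIMS1 (−0.16 to 0.33), PARVA (−0.24 to 0.55), FLNA (−0.30 to 0.03), ACTN4 (−0.03 to 0.10) and TNS3 (−0.87 to 0.11). The cause was not tested.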

Other observations

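Integrin chains outside the examined set included ITGAE, the alpha chain that binds E-cadherin on epithelia when paired with beta-7. It was at 58.4 and 65.3 CPM in knockdown and 38.7 and 34 CPM in controls, a log2 fold change of 0.77 (SE 0.19, edgeR unadjusted p = 0.0102, adjusted p = 0.26, DESeq2 adjusted p = 0.112), with 0.85 without control 1 and 0.67 without control 2. ITGAX, a myeloid chain, was between 4.53 and 8.75 CPM in all libraries, while ITGA2B, ITGAD, ITGAL, ITGAM and ITGB7 stayed under 1 CPM in every library, ITGAM with 16 and 10 counts in knockdown and 3 and 0 counts in controls (edgeR unadjusted p = 0.0471, adjusted p = 0.38). Haematopoietic markers summed to 63.7 and 64.5 CPM in knockdown and 90.3 and 95.1 CPM in controls, with CD68 at 49.3 and 51.2 CPM in knockdown and 78.3 and 76.1 CPM in controls, which is most of each sum. LCP1, an actin-bundling protein of leukocytes, was at 6.95 and 5.75 CPM in knockdown and 2.17 and 2.63 CPM in controls, in the other direction. Of the 5 tested haematopoietic markers, 2 lay below both controls and 2 above, beside 22.9% and 25.4% of all genes tested. Of all 14, 10 stayed under 1 CPM in every library.

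The authors' deposited table of fold changes, given as control over knockdown, does not follow the deposited counts closely. Across 12960 genes, which are not independent replicates, its log2 changes correlated at 0.47 with those computed here, after both were set to the same direction. In the authors' deposited table ITGB3 was the only one of the 36 genes with an adjusted p under 0.05, at −1.64 (adjusted p = 0.00786), which is higher in knockdown. Its deposited counts, 79 and 57 in knockdown and 99 and 60 in controls, overlapped between the groups and gave no direction beyond their spread (log2 fold change −0.41, SE 0.45, knockdown over control). The authors' deposited table gave ZNF217 0.56 (adjusted p = 0.622), control over knockdown. Its base mean, the mean normalized count, was 631 for ITGB3 and 2353 for ZNF217. Both exceed every deposited count of these genes (at most 99 and 1646), so that table does not rest on these 4 count columns alone. Which libraries entered it is not given in the sources used here.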
